A study of Mus musculus with 7 samples.

Results

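The 10 genes described here act at some of the steps that take glucose from the blood to lactate. They are the glucose transporters Slc2a1 and Slc2a4, the hexokinases Hk1 and Hk2, the phosphofructokinases Pfkl and Pfkp, the phosphoglycerate mutases Pgam1 and Pgam2, the pyruvate kinase gene Pkm and the lactate dehydrogenase gene Ldha. They were taken from the deposited gene count table by symbol, 10 of 53715 rows, and all 10 were among the 15123 genes that passed the count filter. The tissue was interscapular brown fat, a pad on the upper back that burns fuel to make heat, and all mice were C57BL/6J males 10 weeks of age. Wild-type animals (WT) served as controls for PGAM5 KO animals (KO), and the labels name no treatment. Poly(A)-selected RNA was sequenced in 3 WT and 3 KO libraries from separate individuals, and the KO 4 sample of the labels was not analysed here. How the Pgam5 allele was made, and whether it was removed in every tissue, is not given in the sources used here.

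Glycolysis splits glucose into pyruvate in the cytosol, yielding ATP without oxygen, and lactate dehydrogenase converts pyruvate and lactate into each other. Brown fat clears much glucose from the blood when it is stimulated by cold or insulin, under insulin largely through the insulin-regulated transporter GLUT4. It uses this glucose for lipid synthesis, for the mitochondria and for lactate. Phosphoglycerate mutase moves the phosphate of 3-phosphoglycerate to the neighbouring carbon late in the pathway. Pgam1 encodes the form found in most tissues and Pgam2 the form of skeletal muscle. PGAM5 belongs to the same protein family by sequence, but it sits in mitochondria and acts as a protein phosphatase rather than as a glycolytic mutase.

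The promoters of Pgam1 and Pgam2 are shown because the 2 genes encode the same enzyme at very different levels. That of Ldha is shown because it alone held a match to CACGTG among the 9 genes searched. Slc2a4 had no window to search. RefSeq gives Ldha a further start downstream, and the upstream window is shown. Each is the 250 bases upstream of the RefSeq start, read 5′ to 3′ on the gene's strand in GRCm38 (mm10). Capitals mark matches on either strand to CACGTG, the E-box core bound by ChREBP and MYC among others, to ACGTG, the core of the hypoxia response element, to CAGCTG, an E-box of myogenic factors, and to TATTTTTA, an A/T-rich core of MEF2 sites. ACGTG lies within CACGTG, so that each match to the longer motif is also a match to the shorter. The windows are chr19:41911621-41911870 on the plus strand for Pgam1, chr11:5803797-5804046 on the minus strand for Pgam2 and chr7:46845554-46845803 on the plus strand for Ldha.
Pgam1: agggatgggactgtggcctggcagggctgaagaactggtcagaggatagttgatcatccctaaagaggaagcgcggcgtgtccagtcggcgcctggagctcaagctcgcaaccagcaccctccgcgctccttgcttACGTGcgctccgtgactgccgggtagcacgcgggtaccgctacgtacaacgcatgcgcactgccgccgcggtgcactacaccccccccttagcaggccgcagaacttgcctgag
Pgam2: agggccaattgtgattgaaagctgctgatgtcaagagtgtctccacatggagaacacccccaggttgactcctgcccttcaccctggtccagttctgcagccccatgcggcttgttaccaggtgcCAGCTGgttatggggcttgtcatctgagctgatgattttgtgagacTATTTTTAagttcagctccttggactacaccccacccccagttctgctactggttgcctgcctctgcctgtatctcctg
Ldha: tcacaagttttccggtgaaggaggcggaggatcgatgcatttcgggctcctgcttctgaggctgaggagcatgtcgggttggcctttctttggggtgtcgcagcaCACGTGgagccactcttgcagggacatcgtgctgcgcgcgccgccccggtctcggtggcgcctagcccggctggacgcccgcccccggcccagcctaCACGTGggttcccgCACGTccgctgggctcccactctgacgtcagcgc
The Ldha window shown held 2 matches to CACGTG, at 145 and 48 bases before the start, and a further ACGTG at 34 bases. The other Ldha window, chr7:46846832-46847081, held no match to any of the 4 motifs. Pgam1 held a single ACGTG at 114 bases, and the Pgam2 window had no match to it but carried CAGCTG at 125 and TATTTTTA at 79 bases. Of the 10 genes, 9 had a promoter in the RefSeq table (all but Slc2a4), in 12 windows, since Hk1, Pkm and Ldha have 2 each. ACGTG was found in 5 of the 12 windows (1 each of Slc2a1, Hk2, Pgam1, Pkm and Ldha), against 16.6% of the 32851 promoter windows in the table. CACGTG was found in 1 window, of Ldha, against 6.02% of all windows. CAGCTG was found in 2, of Pgam2 and Pkm, against 13.0%, and TATTTTTA in 1, of Pgam2, against 2.45%. The Pkm matches to ACGTG and CAGCTG lay in different windows. These matches describe the letters in the windows, and binding was not measured.

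Total counts ranged from 18034204 to 33617762 per library, and a count of 3, the limit that a count of 0 allows, corresponded to between 0.0892 and 0.166 CPM, the count scaled to library size. Pgam5 checked the labels: in WT 1 to WT 3 its level was 6.75, 8.14 and 5.47 CPM, and in KO 1 to KO 3 it was 0.0455, 0.129 and 0.537 CPM (log2 fold change -4.84, SE 0.59, adjusted p = 0.0243 with edgeR). All 9 brown adipocyte markers were detected in every library. Ucp1, the uncoupling protein that makes heat, had 2400, 1638 and 2853 CPM in WT and 4607, 3765 and 5974 CPM in KO (log2 fold change 1.06, SE 0.28, adjusted p = 0.310 with edgeR). Fabp4, a fatty acid carrier of adipocytes, ranged from 5714 to 10568 CPM. The libraries WT 2 and KO 3 stood apart on the first principal component (-65.0 and 66.8, the other 4 between -13.0 and 8.23). Genes of the mitochondrial genome took 43.0% of the counts in WT 2 and 19.7% in KO 3, against 28.2% to 34.1% in the others. The summed counts of the 10 glucose genes ran the other way, at 0.197% of the library in WT 2, 0.542% in KO 3 and 0.288% to 0.313% in the others. These shares are of all counts, the mitochondrial ones included, so a larger mitochondrial share in itself lowers them.

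Fold changes are KO minus WT on the log2 scale throughout, from an edgeR quasi-likelihood fit over all 15123 genes with Benjamini-Hochberg adjustment, and the threshold is an adjusted p of 0.05. None of the 10 genes passed it in either direction, where 0.0595% of all tested genes did (0.0198% higher in KO). The estimates of all 10 were nevertheless positive, from 0.10 for Pgam2 to 0.64 for Pfkl, with a median of 0.37 against 0.00 for all genes tested, of which 49.8% had a positive estimate. Slc2a1 was the only gene of the 10 with an unadjusted p under 0.05, a mark reached in the higher direction by 6.3% of all genes. DESeq2 called 1.12% of the genes it gave an adjusted p and also none of the 10.

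The positive estimates rested largely on a single library. KO 3 had the highest CPM of the 6 libraries for 9 of the 10 genes (all but Pgam2), which was true of 26.5% of all genes, and WT 2 had the lowest for 6 of them, against 27.1%. Both held at the same time for 5 genes, Slc2a1, Pfkl, Pfkp, Pkm and Ldha, against 13.8% of all genes. When KO 3 was left out, 6 of the 10 estimates stayed positive and 4 (Slc2a4, Hk1, Pfkp and Pkm) became negative, the median was 0.08, and 47.8% of all genes tested without it were positive. With the genes of the mitochondrial genome left out of the fit and all 6 libraries kept, all 10 estimates stayed positive. They ran from 0.11 for Pgam2 to 0.65 for Pfkl. This refit could change little, since TMM scaling already allows for a large share held by few genes, so it is no test of the mitochondrial share. The part of that share and of the other ways in which KO 3 and WT 2 stood apart was not tested. In bulk tissue, fewer cells of a type and less RNA per cell cannot be told apart.

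**Figure D1:**
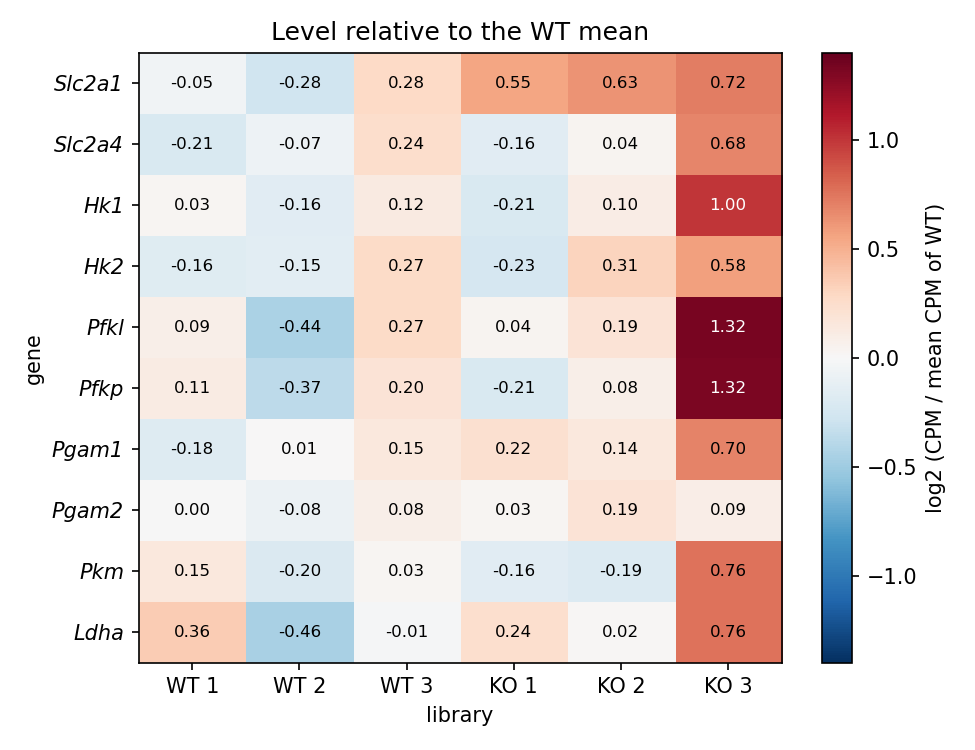
Level of each of the 10 genes (rows) in each library (columns) as log2 of its TMM-scaled CPM over the mean CPM of the 3 WT libraries; red is above and blue below that mean. The KO 3 column is above the WT mean for all 10 genes, by 0.09 for Pgam2 up to 1.32 for Pfkl and Pfkp, while KO 1 and KO 2 lie between -0.23 and 0.63.

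Among the transporters, Slc2a1 encodes GLUT1, the basal transporter of most cells and of the endothelium. It had 3.84, 3.27 and 4.83 CPM in WT 1 to WT 3 and 5.82, 6.14 and 6.55 CPM in KO 1 to KO 3. The lowest KO value exceeded the highest WT value, as for 10.1% of all genes tested, and no other gene of the 10 showed this. The fold change was 0.62 (SE 0.25, 95% interval 0.06 to 1.19, edgeR unadjusted p = 0.0335, adjusted p = 0.405), and it lay between 0.46 and 0.79 over 13 alternative fits, 0.58 without KO 3. At 49 to 164 counts per library it was the least abundant of the 10 genes per length. The summed level of 7 endothelial markers was 428, 310 and 517 CPM in WT and 385, 595 and 781 CPM in KO, with ranges that overlap. All 7 had a positive estimate, against 49.8% of all genes, from 0.07 for Cldn5 to 0.87 for Kdr (median 0.30). KO 3 was the highest library for 6 of them, and 5 stayed positive without it, against 47.8% of all genes. None of the 7 passed the threshold, and none was at 0. Cdh5 had 110, 55.0 and 118 CPM in WT and 95.2, 146 and 234 CPM in KO. Kdr had 83.1, 55.6 and 107 CPM in WT and 82.0, 154 and 213 CPM in KO. The part of these cells in the Slc2a1 values was not tested.

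Slc2a4 encodes GLUT4, which moves to the cell surface when insulin acts. Its levels were 226, 249 and 310 CPM in WT and 235, 269 and 420 CPM in KO, so that the groups overlapped and only KO 3 lay above all WT libraries. The fold change was 0.23 (SE 0.25, adjusted p = 0.692), and it was -0.06 without KO 3. Per length, GLUT4 made up 91.0% ± 3.1 (SD, n = 3) of the RPKM (CPM per kilobase of exon) of the 7 transporter genes compared in WT and 88.1% ± 2.4 in KO. Slc2a1 made up 1.37% and 1.85%. The ratio of Slc2a4 to Slc2a1 within a library was 59.2, 76.0 and 64.6 in WT and 40.5, 44.1 and 64.5 in KO. On the log2 scale the groups differed by -0.45 (exact permutation p = 0.2, adjusted over the 6 isozyme pairs p = 0.6). KO 1 and KO 2 lay below all WT ratios and KO 3 did not.

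Hexokinase traps glucose in the cell by phosphorylating it. Hk2, the insulin-responsive form of muscle and fat, had 177, 179 and 239 CPM in WT and 168, 246 and 295 CPM in KO. KO 1 was the lowest of all libraries and the other 2 KO libraries were the highest. The fold change was 0.26 (SE 0.24, adjusted p = 0.644). Hk1, the form found in most tissues, had 14.8, 13.0 and 15.9 CPM in WT and 12.6, 15.6 and 29.1 CPM in KO, with a fold change of 0.39 (SE 0.29, adjusted p = 0.580). KO 3 was the outlying value, at 2.0 times the WT mean, while the mean of KO 1 and KO 2 was 0.969 times it. Hk2 supplied 93.4% of the hexokinase RPKM in WT and 93.6% in KO, and the log2 ratio of Hk2 to Hk1 differed by -0.07 (exact permutation p = 0.8).

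Phosphofructokinase commits fructose 6-phosphate to glycolysis. Pfkl, named for the liver but the major form here, had the largest estimate of the 10 genes: 320, 221 and 362 CPM in WT and 309, 344 and 754 CPM in KO, a fold change of 0.64 (SE 0.34, unadjusted p = 0.0936, adjusted p = 0.469). KO 1 and KO 2 lay inside the WT range and KO 3 was at 2.50 times the WT mean. Without KO 3 the estimate was 0.12. Pfkp, the platelet form, was likewise highest in KO 3 and lowest in WT 2, with 65.9, 47.1 and 69.8 CPM in WT and 52.5, 64.6 and 152 CPM in KO. Its fold change of 0.56 (SE 0.36, adjusted p = 0.528) became -0.06 without KO 3. Pitrm1, which overlaps Pfkp on the opposite strand, had 7208 counts over its whole length, 68.8% of those of Pfkp. The 2 genes share only chr13:6579768-6580515, beside 13401 exon bases of Pfkp. Reads of the shared stretch cannot be told apart because the strand setting of the counting is not given in the sources used here. Pitrm1 itself stood at 47.7 to 56.1 CPM in all libraries (fold change -0.10, SE 0.15) and did not share the high value in KO 3.

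Pfkm, the muscle form, was added to the comparison as the remaining isozyme. It had 74.1, 73.4 and 71.3 CPM in WT and 84.6, 77.0 and 94.4 CPM in KO, a fold change of 0.23 (SE 0.15, adjusted p = 0.543). Per length, Pfkl, Pfkm and Pfkp made up 62.5%, 31.2% and 6.33% of phosphofructokinase RPKM in WT and 66.7%, 27.0% and 6.23% in KO. These shares depend on the length used. The union of annotated exons is 6675, 3340 and 13401 bases, while the coding sequences have 2343, 2343 and 2355 bases. In CPM, the WT means were 301, 72.9 and 60.9, so Pfkp lay much closer to Pfkm than per length. The ratio of Pfkm to Pfkl ran from 0.394 to 0.662 in WT and from 0.250 to 0.548 in KO. On the log2 scale this ratio differed by -0.33 (exact permutation p = 0.5), and that of Pfkp to Pfkl by -0.13 (exact permutation p = 0.2). Over these 6 isozyme pairs no adjusted p was under 0.6, and 3 libraries against 3 cannot give a p below 0.1.

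**Figure D2:**
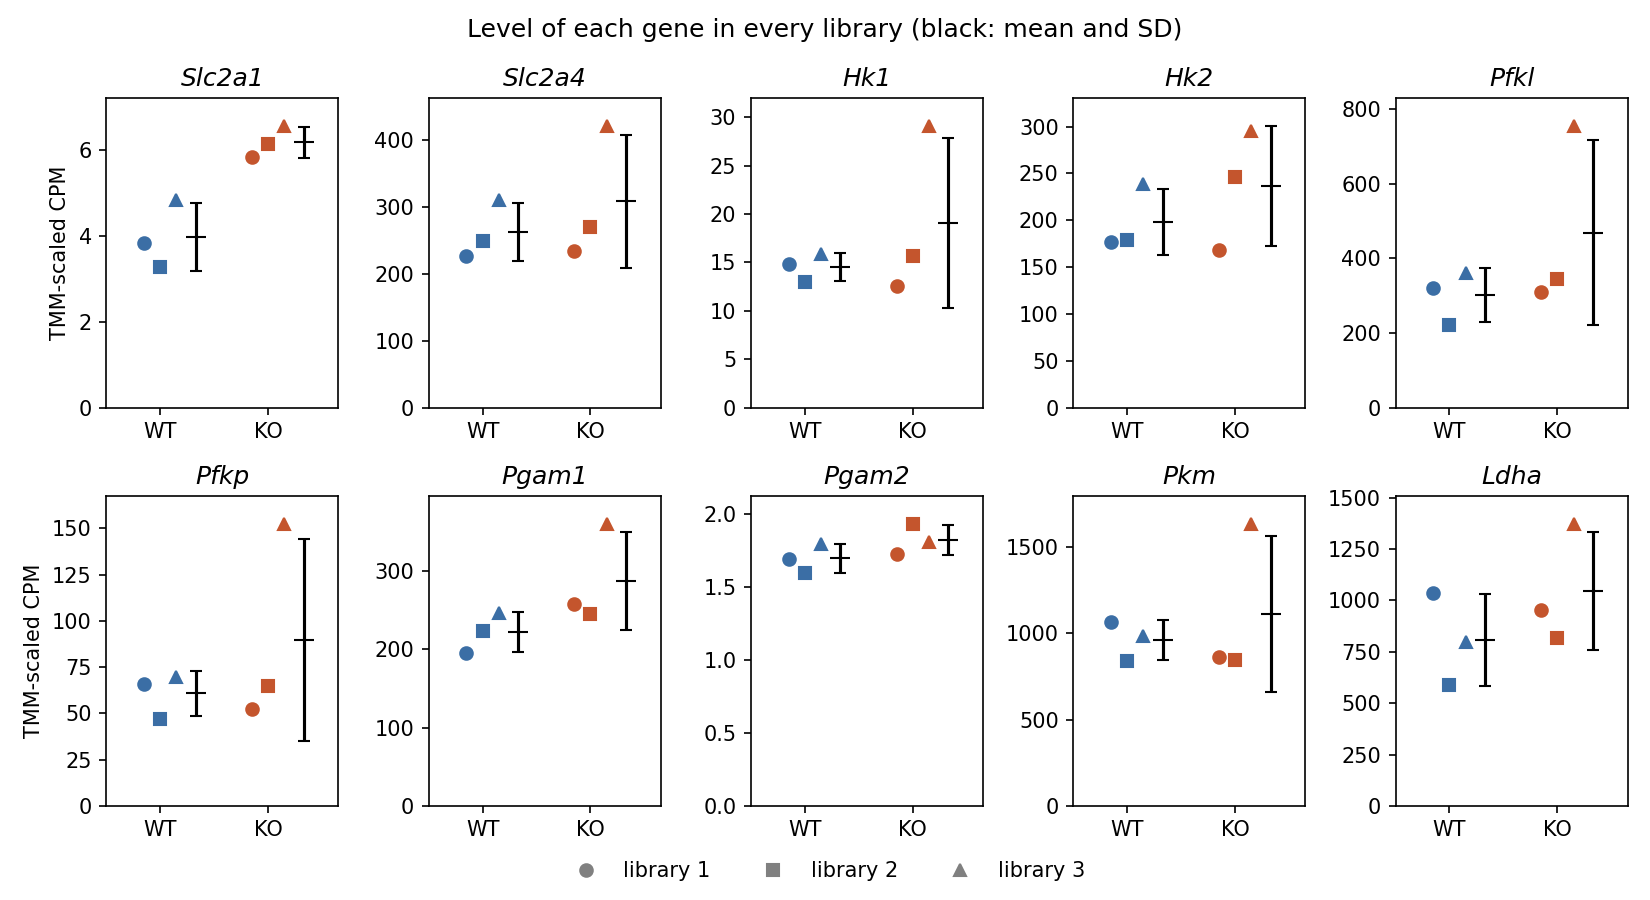
TMM-scaled CPM (linear axis from 0, separate for each gene) of the 10 genes in the 3 WT (blue) and 3 KO (orange) libraries; symbols give the library number, and the black mark and bar beside each group are its mean and SD. The Slc2a1 panel is the only one in which all KO points lie above all WT points, and in the Pfkl and Pfkp panels KO 3 stands at 754 and 152 CPM against 344 and 64.6 CPM for the next KO library.

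Pgam1 had 196, 224 and 247 CPM in WT and 258, 245 and 359 CPM in KO. The groups overlapped by a narrow margin, since KO 2 lay just under WT 3. The fold change was 0.37 (SE 0.20, 95% interval -0.08 to 0.83, unadjusted p = 0.0974, adjusted p = 0.473), and it kept its sign in all 13 alternatives (0.18 to 0.48, the lowest without KO 3). Pgam1 has 3 processed copies with at least 90% identity over 300 bases or more. Together they held 748 counts, 2.12% of those of Pgam1, almost all on Pgam1-ps2 (744 counts). That copy matches the Pgam1 coding sequence at 100% over 765 bases, so reads assigned to it may come from Pgam1. The counts do not show whether reads that match both were left uncounted, so the level of Pgam1 may be understated.

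Pgam2 was nearly level. It had 1.70, 1.6 and 1.80 CPM in WT and 1.73, 1.93 and 1.81 CPM in KO, from 24 to 61 counts per library and 247 in all. The fold change was 0.10 (SE 0.33, 95% interval -0.64 to 0.84, adjusted p = 0.908), an interval that still includes changes of over 0.5 in either direction, and it was 0.10 without KO 3. It was the only gene of the 10 for which KO 3 was not the highest library. The summed level of skeletal muscle markers varied far more, at 10.3, 16.3 and 53.1 CPM in WT and 2.55, 46.0 and 4.5 CPM in KO. WT 3 and KO 2 were the highest of their groups both for Pgam2 and for these markers. Elsewhere the 2 differed. KO 3 had about as much Pgam2 as WT 3 (1.81 and 1.80 CPM) at marker sums of 4.5 and 53.1 CPM. WT 2 lay above WT 1 for the markers and below it for Pgam2. Of the 12 muscle markers, 10 passed the count filter and none was at 0 in every library. Myh4, a fast muscle myosin, ran from 0.273 to 12.1 CPM. The part of muscle RNA in the Pgam2 values was not tested.

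Pgam1 thus supplied 98.2% ± 0.2 (SD, n = 3) of phosphoglycerate mutase RPKM in WT and 98.5% ± 0.3 in KO. Pgam1 was 48.3, 58.0 and 57.8 times Pgam2 per length in WT 1 to WT 3 and 62.6, 53.2 and 83.1 times in KO 1 to KO 3. The log2 ratio of Pgam2 to Pgam1 differed by -0.26 (exact permutation p = 0.4, adjusted p = 0.6), and the groups overlapped. The coding sequences of the pair are 74.8% identical with a longest identical run of 28 bases, so that a coding read longer than this run differs between them.

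Pkm encodes the pyruvate kinases M1 and M2, which make pyruvate and ATP, and a gene count does not tell these splice forms apart. It had 1066, 838 and 984 CPM in WT and 860, 844 and 1631 CPM in KO. KO 1 and KO 2 lay at the low end of the WT range, with a mean 0.885 times the WT mean, and KO 3 lay far above it. The fold change of 0.21 (SE 0.28, adjusted p = 0.758) became -0.18 without KO 3. Pkm supplied 99.7% of pyruvate kinase RPKM in WT and 99.9% in KO. Its 7 processed copies held 1182 counts (0.819% of Pkm), mostly Gm6560 with 1157, and Gm49759, which overlaps Pkm on the same strand, held 5143 (3.56%).

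Ldha, the lactate dehydrogenase subunit of fast muscle and other glycolytic tissues, had 1035, 589 and 800 CPM in WT and 952, 820 and 1370 CPM in KO. WT 1 lay above both KO 1 and KO 2, and the fold change was 0.37 (SE 0.27, adjusted p = 0.566), 0.13 without KO 3. Ldhb, the heart-type subunit, had 439, 634 and 512 CPM in WT and 559, 505 and 592 CPM in KO (fold change 0.06, SE 0.20, adjusted p = 0.903). WT 2, the lowest library for Ldha, was the highest for Ldhb. Per length, Ldha made up 42.0% ± 11.1 (SD, n = 3) of lactate dehydrogenase RPKM in WT and 46.9% ± 4.8 in KO. The log2 ratio of Ldhb to Ldha differed by -0.30 (exact permutation p = 0.5). Processed copies of Ldha held 881 counts, 0.679% of its own, most of them on Ldha-ps2 (716).

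Per length, the order of the 10 genes in WT was Ldha (244 ± 67.5 RPKM, SD, n = 3), Pkm (193 ± 23.1), Pgam1 (112 ± 12.9), Slc2a4 (75.3 ± 12.5), Pfkl (45.1 ± 10.8), Hk2 (33.2 ± 5.93), Pfkp (4.55 ± 0.905), Pgam2 (2.02 ± 0.116), Hk1 (1.71 ± 0.169) and Slc2a1 (1.13 ± 0.225). The ranges of Ldha and Pkm overlapped, as did those of Pfkl and Hk2, and the ranges of all other neighbours in this order were separate. A gap of 7.30 times separated Hk2 from Pfkp. Part of it comes from the length used, 5969 exon bases for Hk2 and 13401 for Pfkp, and the WT means were 198 and 60.9 CPM. KO kept the same order except that Hk1 and Pgam2 changed places, with Hk1 at 2.24 ± 1.03 RPKM and Pgam2 at 2.17 ± 0.122. KO 3 alone set this, since Hk1 lay below Pgam2 in KO 1 (1.48 against 2.06 RPKM) and KO 2 (1.83 against 2.30) and above it in KO 3 (3.41 against 2.15).

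**Figure D3:**
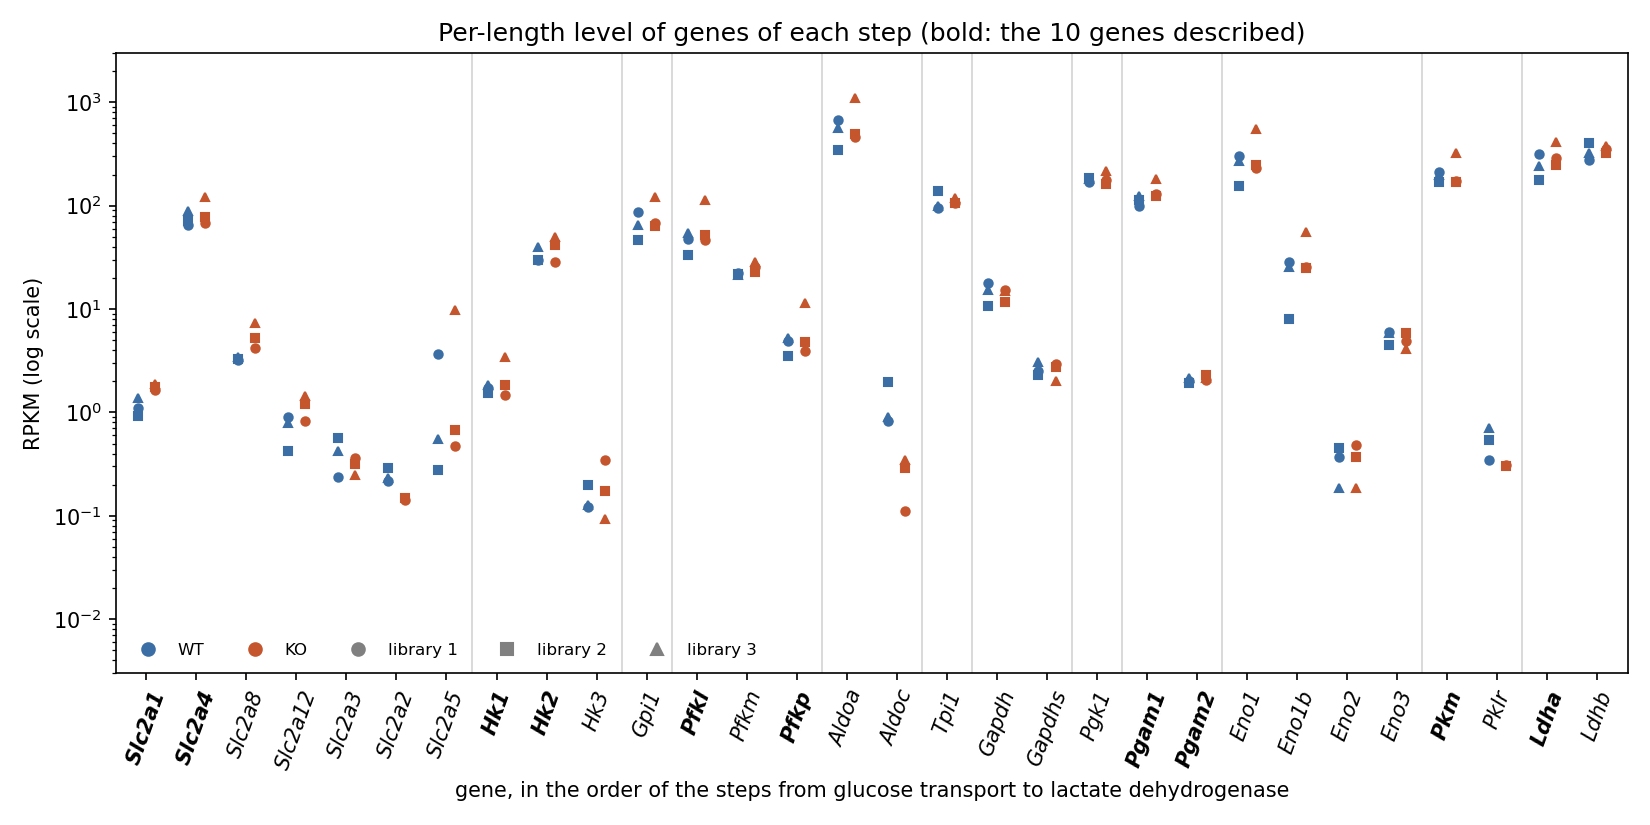
RPKM on a log axis of genes of the pathway in the 3 WT (blue) and 3 KO (orange) libraries, ordered by step with grey lines between steps; symbols give the library number. Slc2a2 and Pklr were at 0 in KO 3 and have no point there, and genes under 0.1 RPKM in every library are among those not drawn. Slc2a4, Hk2, Pfkl, Pgam1 and Pkm lead their steps in both groups, while Ldha and Ldhb lie close together at 178 to 414 RPKM.

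**Figure D4:**
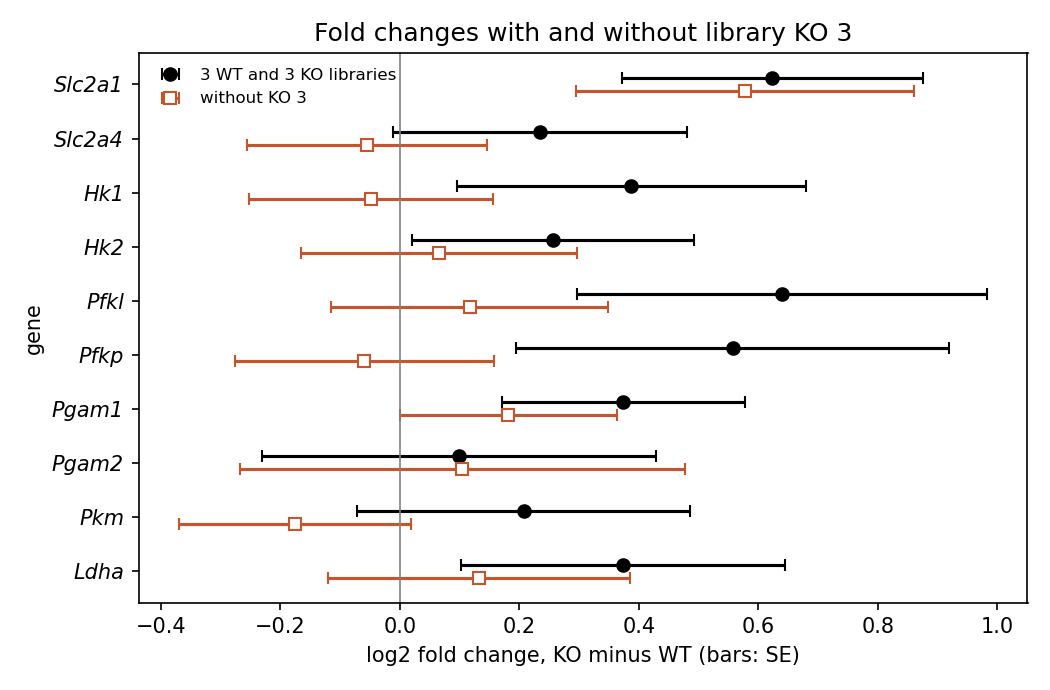
Log2 fold change, KO minus WT, of the 10 genes with its SE, from all 6 libraries (filled circles) and without KO 3 (open squares); the vertical line is 0. Slc2a1 stays at 0.58 without KO 3, whereas Slc2a4, Hk1, Pfkp and Pkm cross to between -0.18 and -0.05.

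The other genes of glucose handling were read from 7 lists. Of the 87 genes tested in them, 0 passed the threshold with edgeR, while at an unadjusted p under 0.05 there were 7 with a positive and 4 with a negative estimate, where 6.3% and 5.49% of all genes met these marks. DESeq2 called 2, Aldoc and Ppp1r3c, against 1.12% of all genes, and edgeR without the count filter called 7, against 2.38%. Of 12 other glucose transporters, 8 were tested, 6 with a positive and 2 with a negative estimate (median 0.71, 0.32 without KO 3). Slc2a8, a transporter kept largely inside the cell, had 10.4, 10.5 and 10.9 CPM in WT and 13.4, 16.9 and 23.5 CPM in KO, without overlap, as for 10.1% of all genes (fold change 0.76, SE 0.23, adjusted p = 0.348). Slc2a5, the fructose transporter, had 12.5, 0.934 and 1.88 CPM in WT and 1.59, 2.27 and 33.7 CPM in KO, so that WT 1 and KO 3 set its fold change of 1.27 (SE 1.15), which was -1.41 without KO 3 and 3.08 without WT 1. It was among the 7 called without the count filter (adjusted p = 0.000494 with edgeR).

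Of 20 other glycolytic enzymes, 17 were tested, 9 positive and 8 negative (median 0.05, -0.03 without KO 3). Aldoa, the aldolase of muscle and most tissues, had 1944, 998 and 1629 CPM in WT and 1350, 1424 and 3192 CPM in KO (fold change 0.38, SE 0.37). Eno1, the enolase that follows the mutase, had 1638, 838 and 1441 CPM in WT and 1251, 1327 and 2943 CPM in KO (fold change 0.49, SE 0.37). Both repeated the high KO 3 and low WT 2 of Pfkl, Pfkp and Pkm, and both estimates were under 0 without KO 3, at -0.14 and -0.02. Between them in the pathway, the isomerase Tpi1 ran from 263 to 379 CPM and was highest in WT 2, and the kinase Pgk1 ran from 364 to 487 CPM, highest in KO 3 and lowest in KO 2. Gapdh was listed at only 14.6 RPKM in WT beside 111 for Tpi1 and 179 for Pgk1. The annotation holds 166 copies with at least 90% identity to it over 300 bases or more, of which 127 held counts, and these held 19346 counts in all, 230% of the 8411 on Gapdh itself, so its level here is uncertain.

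Among 9 regulators of flux, 5 were positive and 4 negative (median 0.08). Pfkfb3, which makes the activator of phosphofructokinase, ran from 539 to 712 CPM in WT and from 366 to 726 CPM in KO (fold change -0.10, SE 0.26), and the related Pfkfb1 had a fold change of 0.29 (SE 0.20). Of 6 genes of lactate and pyruvate transport, 5 were tested, 4 positive and 1 negative (median 0.02, and 2 positive without KO 3). The lactate carrier Slc16a1 and its chaperone Bsg had fold changes of 0.07 (SE 0.26) and -0.04 (SE 0.17).

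The 18 genes of GLUT4 traffic and insulin signalling were divided, 8 positive and 10 negative (median -0.06). Akt2, the insulin-signalling kinase, had a fold change of 0.23 (SE 0.18), and Trarg1, a GLUT4 trafficking regulator of adipocytes, one of -0.22 (SE 0.20). Of 16 genes of glucose and oxygen sensing, 14 were tested, 5 positive and 9 negative (median -0.13), and 3 were positive without KO 3. Txnip, which responds to glucose through ChREBP and restrains glucose uptake, had 905, 1115 and 1009 CPM in WT and 738, 630 and 1122 CPM in KO (fold change -0.28, SE 0.24). Vegfa, an angiogenic factor induced by low oxygen, had a fold change of -0.15 (SE 0.20).

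All 16 genes of glycogen and of the first branch points were tested, 10 positive and 6 negative (median 0.24, -0.03 without KO 3). Gpd1, which diverts triose to glycerol 3-phosphate for triglyceride, had 1970, 2301 and 2719 CPM in WT and 2695, 3100 and 4837 CPM in KO (fold change 0.61, SE 0.27, adjusted p = 0.423). KO 1 lay just under WT 3, so that the groups overlapped. Pygl, the liver glycogen phosphorylase, had 565, 229 and 379 CPM in WT and 303, 316 and 943 CPM in KO (fold change 0.41, SE 0.46, -0.34 without KO 3).

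**Figure D5:**
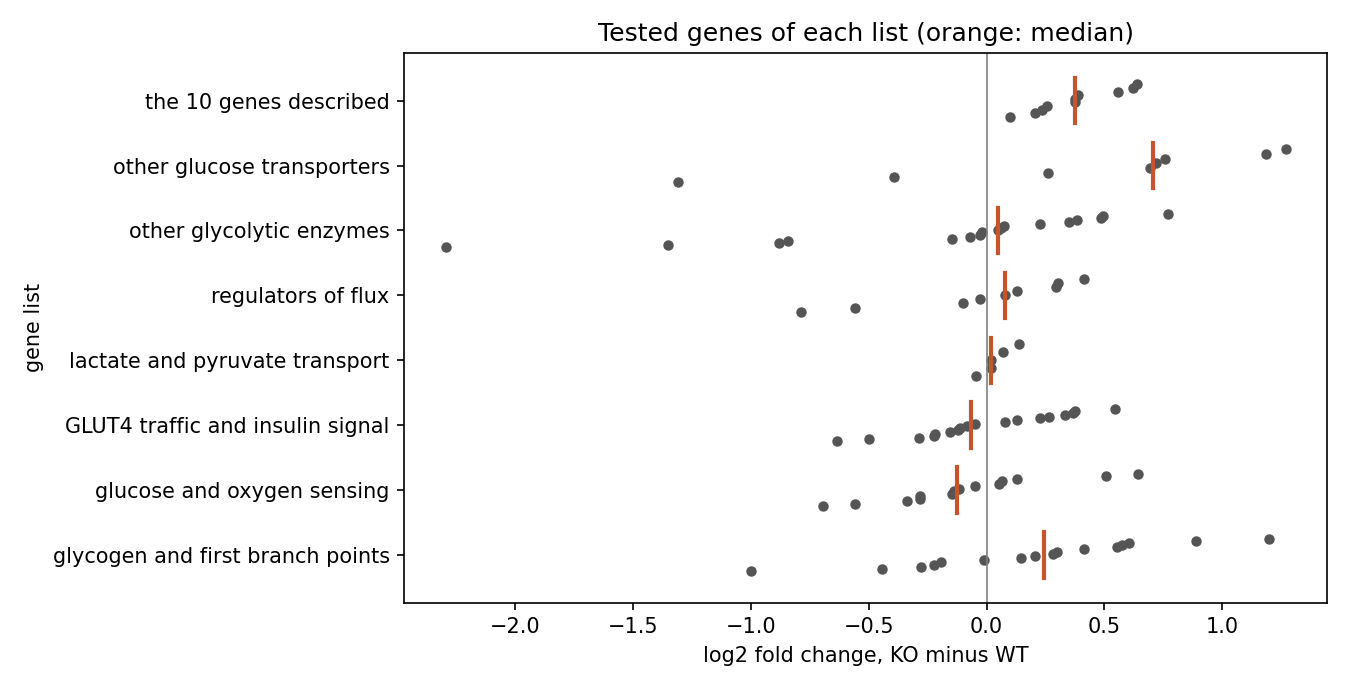
Log2 fold change, KO minus WT, of every tested gene (grey points, spread vertically only to separate them) in each gene list, with the median in orange and 0 as the grey line. The 10 genes described lie above 0 with a median of 0.37, the other glucose transporters have a higher median (0.71), glycogen and branch points one of 0.24, and the enzyme, regulator, lactate transport, GLUT4 and sensing lists have medians between -0.13 and 0.08.

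The remaining marker lists were measured beside these values. Summed erythrocyte markers stood at 902, 723 and 809 CPM in WT and 759, 499 and 589 CPM in KO (Hbb-bs 319 to 529 and 266 to 387 CPM). The 5 tested all had a negative estimate, with and without KO 3 (medians -0.40 and -0.38), while 49.8% of all genes had a positive one. None passed the threshold. Hbb-bt had 78.5, 71.8 and 77.5 CPM in WT and 58.3, 34.8 and 46.7 CPM in KO (fold change -0.70, SE 0.20, adjusted p = 0.330 with edgeR). Leukocyte markers summed to 73.2 to 116 CPM in WT and 55.0 to 104 in KO, fibroblast markers to 313 to 421 and 387 to 415, and nerve and Schwann cell markers to 112 to 135 and 94.5 to 155. None of these 4 sums had ranges that were separate between the groups, and no marker was at 0 in every library. The part of these cells in the levels of the 10 genes was not tested.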

How the data were processed

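The deposited table gives an unnormalized count for each gene. The submitters' processing notes name build mm10 and the tools HISAT2 2.1.0, featureCounts 1.6.2 and DESeq2, and the sources used here state neither annotation release nor strand setting. Columns were matched to samples by name. Symbols were found for 53620 of 53715 identifiers, and positions, exon lengths and copies came from GENCODE release M 21 on the same build, where 95.8% of identifiers matched with their version. Promoters came from RefSeq.

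The low-count filter was filterByExpr (count 10, total 15) and the scaling TMM. The KO against WT test was edgeR's quasi-likelihood F test on a genotype term (R 4.3.3, edgeR 4.0.16, limma 3.58.1). RPKM is TMM-scaled CPM per kilobase of the union of a gene's exons. Isozyme ratios within a library used counts plus 0.5 per kilobase and an exact two-sided permutation test over the libraries. Processed copies were found with BLAST 2.17.0.

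The 10 genes, Pgam5, the 2 most abundant genes of each list, the top copy of a gene and overlapping genes with at least 1% of its counts were named by rule. The 10 genes and the lists were chosen with earlier results of these data known. Other genes named, and a list of hepatocyte markers, were chosen after their values were seen. Where 2 rows share the symbol Aldoa, the row with more counts was used. Alternatives were DESeq2 1.42.0, limma-voom, other size factors, no filter, no mitochondrial genome genes, a replicate block and each library left out, with WT 2 and KO 3 also left out together. List counts without KO 3 were chosen after seeing the data. Some genes of the lists are not reported here. Figures were drawn with matplotlib 3.10.9.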

Additional observations from a re-analysis of the deposited data

How the results depend on the processing

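The number of the 10 genes past the threshold was 0 in every alternative run. Over all genes, the main count of 9 became 168 with DESeq2, 663 without the filter, 5 with the replicate block, 27 without both WT 2 and KO 3, and 0 to 17 when single libraries were left out (0 without KO 2, 1 without KO 1, 17 without WT 2). Leaving out both WT 2 and KO 3 reversed Slc2a4 (-0.087), Hk1 (-0.12), Pfkl (-0.059), Pfkp (-0.21), Pkm (-0.26) and Ldha (-0.049), and among other genes Slc2a5 (-1.88), Aldoa (-0.36), Eno1 (-0.25), Slc16a1 (-0.35), Vegfa (0.016) and Pygl (-0.61). It also reversed the log2 ratios of Hk2 to Hk1 (0.11), Ldhb to Ldha (0.21) and Pfkm to Pfkl (0.21). The cause was not tested.

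With single libraries left out, estimates ran from -0.056 to 0.41 for Slc2a4, -0.048 to 0.62 for Hk1, -0.059 to 0.84 for Pfkp, -0.18 to 0.37 for Pkm, -1.41 to 3.08 for Slc2a5, -0.14 to 0.61 for Aldoa, -0.019 to 0.72 for Eno1, -0.30 to 0.25 for Slc16a1 and -0.34 to 0.78 for Pygl, each lowest without KO 3. They ran from -0.33 to 0.14 for Pfkfb3 and -0.10 to 0.035 for Bsg. The differences in log2 ratio ran from -0.21 to 0.10 for Hk2 to Hk1, -0.62 to 0.047 for Ldhb to Ldha and -0.56 to 0.0014 for Pfkm to Pfkl. Pgam5 missed the threshold with limma-voom (adjusted p = 0.0531), the replicate block (0.0655) and without WT 1, WT 3, KO 1 or KO 2 (0.0545 to 0.165), with fold changes of -6.18 to -4.35 throughout. Libraries of the same number share only that number, with correlations of their deviations of -0.114, 0.102 and 0.091. Under the block Slc2a1 was 0.64 and Pgam1 0.36, and it changed no other call of a gene named here.

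The limits are 3 libraries a group, 1 KO library that sets most estimates, and 247 counts in all for Pgam2.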

Other observations

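Some genes known best from liver followed another order of libraries than the 10 genes, and others did not. Pygl, the liver glycogen phosphorylase, was highest in KO 3 (943 CPM) and lowest in WT 2 (229 CPM). Gys2, the liver glycogen synthase, was highest in KO 3 (72.6 CPM) and lowest in WT 1 (18.9 CPM). In contrast, Slc2a2 (GLUT2) and Pklr, the liver pyruvate kinase, had 1.25 to 1.67 and 1.13 to 2.27 CPM in WT and no counts in KO 3. Fbp1, a gluconeogenic phosphatase, was at 0.733 CPM in KO 3 against 3.27 to 7.0 CPM in the other 5 libraries. The summed level of 8 hepatocyte markers chosen after the data were seen was 328, 586 and 348 CPM in WT and 296, 376 and 23.0 CPM in KO. WT 2 was the highest library for this sum and KO 3 the lowest. None of these genes passed the threshold in the main edgeR fit, though Gys2 did without the count filter. The part of hepatocyte RNA in any value was not tested.

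Aldoc, the brain aldolase, had 2.71, 6.47 and 2.91 CPM in WT and 0.364, 0.944 and 1.12 CPM in KO. Its fold change of -2.29 (SE 0.51) had an adjusted p of 0.305 with edgeR, 0.0024 with DESeq2 and 4.38e-05 with edgeR and no filter, and 0.18 to 0.489 in the remaining alternatives. Ppp1r3c, which targets a phosphatase to glycogen, had 90.4, 164 and 189 CPM in WT and 66.6, 89.7 and 65.3 CPM in KO (fold change -1.0, SE 0.27). Its adjusted p was 0.322 with edgeR, 0.0343 with DESeq2 and 0.000571 without the filter, and 0.152 to 0.699 in the remaining alternatives.

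Pgd, of the pentose phosphate pathway, stood at 506 CPM in KO 3 against 69.6 to 141 CPM in the other libraries (fold change 1.20, SE 0.57, adjusted p = 0.428 with edgeR). It passed the threshold with edgeR without the count filter (adjusted p = 1.25e-05).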
